A study of Mus musculus with 4 samples.

Results

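The regions described here are the stretches of chromatin with the highest H3K27ac peak scores in the heart of IKKβ-intact *mdx* mice. They were selected on the peak score, the caller's count of position-adjusted tags in the initial peak window, which had to be at least 40 on chromosomes 1 to 19. Of 12566 regions in the *mdx* IKKβf/f list, 12540 lay on these chromosomes, and 549 of those (4.38%, 95% Wilson interval 4.03 to 4.75) met the minimum. For comparison, the list from hearts lacking IKKβ in cardiomyocytes held 22981 regions.

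The *mdx* mouse lacks dystrophin and is a model of Duchenne muscular dystrophy. Both groups were whole hearts of 7-month-old *mdx* mice that carry loxP sites around the gene for IKKβ, the kinase that activates NF-κB. In *mdx* IKKβf/f mice the gene was intact, because they had no cre. In *mdx* HRTΔIKKβ mice it was deleted by Myh6-cre, which is driven by the alpha myosin heavy chain promoter in cardiomyocytes, so the other cells of the heart kept it. The labels write this genotype both as Myh6-cre with floxed IKKβ and as IKKb-/-. Each genotype had 1 H3K27ac ChIP library and 1 input library (chromatin sequenced without immunoprecipitation). The number of hearts in a library is not given in the sources used here. No value below therefore has a replicate error, no difference between the genotypes was tested, and a difference between hearts cannot be told apart from one between libraries. Intervals cover counting error over regions only, and regions of 1 library are not replicates. Depth was 57852347 ChIP tags for *mdx* IKKβf/f, and for *mdx* HRTΔIKKβ it was 62458751.

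Acetylation of lysine 27 of histone H3 is deposited by the coactivators p300 and CBP and removed by histone deacetylases. It marks active promoters and active enhancers, and in heart the strongest acetylation is known from genes of the contractile apparatus and from regulatory DNA bound by cardiac transcription factors. NF-κB subunits can recruit either kind of enzyme to chromatin.

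The central 200 bases of 11 of the regions are printed as examples, picked by score, position or a nearby region in the other heart. They are given on the plus strand of NCBIM37 (mm9), with CpG dinucleotides in capitals. The 5 regions on either side of *Hmx1* on chromosome 5 are shown first, because all of them had a region of the *mdx* HRTΔIKKβ heart beside them.
Upstream of Adra2c, score 54, chr5:35599464-35599663: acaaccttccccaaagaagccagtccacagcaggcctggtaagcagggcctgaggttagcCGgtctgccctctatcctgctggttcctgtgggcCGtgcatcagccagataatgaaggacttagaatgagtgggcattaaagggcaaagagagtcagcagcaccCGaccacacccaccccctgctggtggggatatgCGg
Downstream of Hmx1, score 43, chr5:35749061-35749260: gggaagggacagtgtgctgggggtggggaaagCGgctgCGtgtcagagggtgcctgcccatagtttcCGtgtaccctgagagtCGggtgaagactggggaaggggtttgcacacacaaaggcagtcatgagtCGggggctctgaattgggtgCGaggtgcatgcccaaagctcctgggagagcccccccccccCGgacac
Downstream of Hmx1, score 41, chr5:35760745-35760944: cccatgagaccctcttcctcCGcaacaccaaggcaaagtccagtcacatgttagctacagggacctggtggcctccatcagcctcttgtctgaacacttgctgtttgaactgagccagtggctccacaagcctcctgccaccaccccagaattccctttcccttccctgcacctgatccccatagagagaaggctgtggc
Downstream of Hmx1, score 45, chr5:35773797-35773996: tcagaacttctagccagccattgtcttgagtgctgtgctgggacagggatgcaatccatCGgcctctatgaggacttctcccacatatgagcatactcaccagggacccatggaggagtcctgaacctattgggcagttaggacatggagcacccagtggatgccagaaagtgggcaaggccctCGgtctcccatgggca
Downstream of Hmx1, score 53, chr5:35791505-35791704: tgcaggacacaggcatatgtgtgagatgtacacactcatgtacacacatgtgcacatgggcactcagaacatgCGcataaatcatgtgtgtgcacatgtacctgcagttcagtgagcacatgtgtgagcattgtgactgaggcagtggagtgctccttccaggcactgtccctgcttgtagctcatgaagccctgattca

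Of these, the region with a score of 43 had the most CpG in its central 200 bases (7) and the regions with scores of 41 and 53 had the fewest (1 each). The next 3 are the region with the highest score of the list and 2 with a region of the *mdx* HRTΔIKKβ heart within 1 kb. Among selected regions with such a neighbour, these 2 had the neighbours with the highest scores.
Intron of Mrgpra3, score 56, chr7:54851143-54851342: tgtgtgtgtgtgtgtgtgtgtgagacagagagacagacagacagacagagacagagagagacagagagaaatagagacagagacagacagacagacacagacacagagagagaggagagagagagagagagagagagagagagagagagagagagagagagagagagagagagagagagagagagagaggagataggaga
Upstream of Tcerg1l, score 45, chr7:145760506-145760705: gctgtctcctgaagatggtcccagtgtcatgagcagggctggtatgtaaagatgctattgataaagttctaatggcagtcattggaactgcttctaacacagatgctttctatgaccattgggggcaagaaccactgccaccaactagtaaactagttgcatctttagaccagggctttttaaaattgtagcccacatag
Near Grm4, score 42, chr17:27527110-27527309: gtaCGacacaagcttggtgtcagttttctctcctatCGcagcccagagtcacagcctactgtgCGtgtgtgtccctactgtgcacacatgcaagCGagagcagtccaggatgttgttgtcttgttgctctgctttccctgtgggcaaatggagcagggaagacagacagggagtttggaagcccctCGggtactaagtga

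The printed 200 bases of the region in *Mrgpra3* consist largely of GT, GACA and GA repeats and hold no CpG. The last 3 are regions of high score that lie on coding exons, and they are the most GC-rich of those printed beside the *Hmx1* region with a score of 43.
Exon of Fbxo41, score 50, chr6:85434044-85434243: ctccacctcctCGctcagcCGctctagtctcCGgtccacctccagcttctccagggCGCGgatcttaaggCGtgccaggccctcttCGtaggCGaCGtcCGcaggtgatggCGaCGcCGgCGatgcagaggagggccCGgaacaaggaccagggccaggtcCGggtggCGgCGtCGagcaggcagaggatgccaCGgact
Exon of Apoa5, score 50, chr9:46078121-46078320: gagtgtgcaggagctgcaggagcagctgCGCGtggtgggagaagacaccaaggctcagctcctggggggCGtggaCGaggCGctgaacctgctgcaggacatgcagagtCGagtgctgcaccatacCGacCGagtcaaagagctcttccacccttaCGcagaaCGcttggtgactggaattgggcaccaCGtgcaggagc
Exon of Fuk, score 51, chr8:113413084-113413283: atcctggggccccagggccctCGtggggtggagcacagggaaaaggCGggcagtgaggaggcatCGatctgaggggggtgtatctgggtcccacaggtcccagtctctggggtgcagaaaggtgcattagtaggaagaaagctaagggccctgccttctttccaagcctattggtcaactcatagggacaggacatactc

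Between them, the *Fbxo41* window held 20 CpG, the *Apoa5* window 11 and the *Fuk* window 3. Their GC content was 68.5%, 62.0% and 58.5%.

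The scores of the 549 regions ran from 40 to 56, with a median of 42 and quartiles of 40 and 44. The caller expected 14.463 tags in a window, so the minimum of 40 is 2.77 times and the highest score 3.87 times that number. The regions were therefore close to one another in score: 145 stood at exactly 40, and 99 reached 45 or more. Just outside the minimum, 217 regions had a score of 39. Regions at 40 and at 39 had similar widths and overlapping tags, with median normalized tags (per 10000000 tags in the library) of 6.91 and 6.57, and median fold over input of 5.23 and 5.09. These values follow from the rule and are a description.

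Normalized tags ran from 6.05 to 15.2 in the selected regions (median 7.26), and from 3.8 to 18.1 in the other regions of the list (median 5.36). The highest normalized tags thus belonged to a region that was not selected, because normalized tags sum over the whole region and the score does not. Of the selected regions 360 (65.6%) were exactly 500 bp wide, the size of the caller's window, against 86.7% of the others. The widest spanned 1144 bp in *Arhgap44*. Input tags had a median of 6 (range 1 to 14) in the selected regions and of 4 in the others, and fold over input a median of 4.93 (range 4.03 to 31) against 5.16. So the selected regions had more tags in the ChIP and in the input, and their median enrichment over input was not higher.

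The highest score, 56, was in intron 1 of *Mrgpra3*, which encodes an itch receptor of sensory neurons. It held 53 tags against 9 in the input, and 25.6% of its central 500 bp were exact tandem repeats of units of 1 to 6 bases. The next, with a score of 55, lay 218 kb from the start of *Snrpn*, an imprinted gene for a splicing protein. That was the nearest protein-coding start, while an annotated transcription start that is not protein-coding lay only 365 bp away. A region with a score of 54 lay in *Gm7235*. None of these 3 regions on chromosome 7 had a region of the *mdx* HRTΔIKKβ heart within 1 kb. Of the selected regions 9.11% had one, and of all regions 6.40%.

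Another score of 54 lay 21.7 kb upstream of *Adra2c*, the gene for an adrenergic receptor that limits noradrenaline release. The region near *Mrm1*, a mitochondrial ribosomal RNA methyltransferase, had a score of 53 and 85 tags over 896 bp. In *Gabbr2*, which encodes a subunit of the GABA-B receptor, the score was 53 in intron 1, and a second selected region with a score of 41 lay in the same intron. The region 59.8 kb downstream of the start of *Hmx1*, a homeobox gene of the developing eye and ear, also had a score of 53. A region 147 kb upstream of *Tmem45b* had a score of 52.

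Of the following regions, *Arhgap44* (intron 16) and *Fuk* (exon 15), the gene for fucokinase, had scores of 51. The *Fuk* region had 57 tags over only 3 in the input, a fold of 13.1. Scores of 50 were reached upstream of *Fam125b*, in exon 58 of *Fbn2* (fibrillin-2, a protein of microfibrils), in intron 9 of *Aff3*, in intron 8 of *Grm4* (a metabotropic glutamate receptor) and in intron 1 of *Sipa1l1*. Exons and introns are numbered along the longest annotated transcript that spans the region. Further regions with a score of 50 were those in *Fbxo41* and *Apoa5*, printed above.

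**Figure D1:**
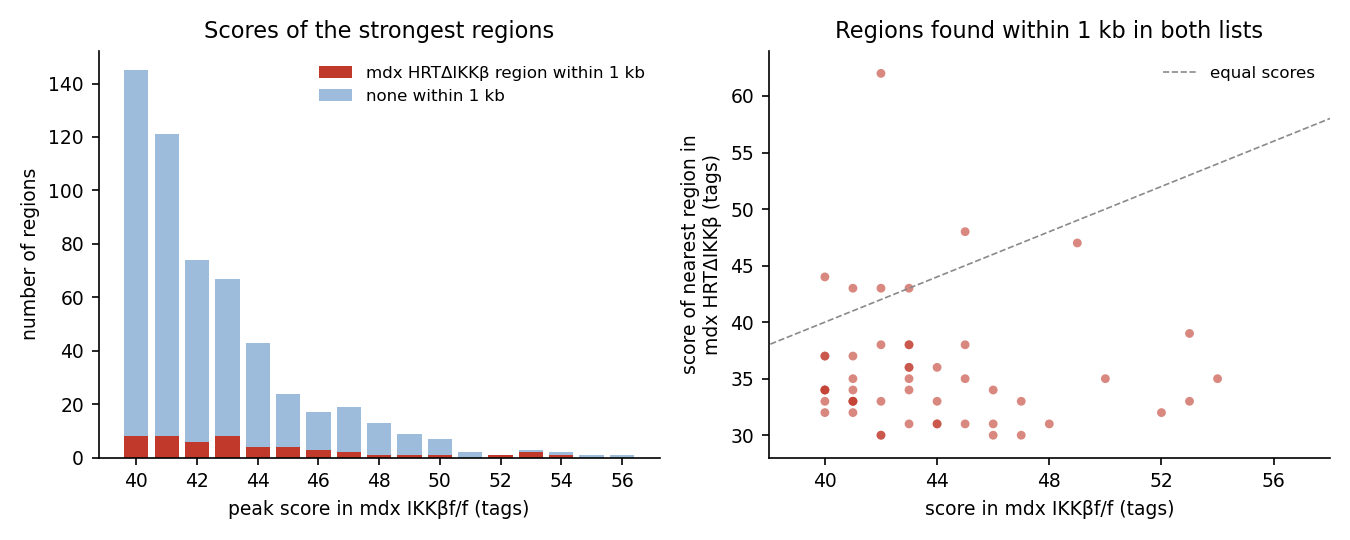
The left plot gives the number of the 549 regions (y axis) at each peak score (x axis, tags), with regions that have an *mdx* HRTΔIKKβ region within 1 kb in red and the others in light blue. The right plot gives, for the 50 regions in red, the score in *mdx* IKKβf/f (x axis) and that of the nearest *mdx* HRTΔIKKβ region (y axis), 1 point per region; most points lie below the dashed line of equal scores, and 5 lie above it.

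Whether the same places were called in the heart lacking cardiomyocyte IKKβ was asked with the *mdx* HRTΔIKKβ list, which the rule did not use. Of the 549 regions, 50 (9.11%, 6.98 to 11.8) had a region of that list within 1 kb, against 6.40% of all 12540 regions and 6.27% of the regions with lower scores. Counting overlap alone, 30 (5.46%, 3.85 to 7.69) overlapped one, against 3.18% of all regions. Within 5 kb the count was 139 (25.3%), against 17.7% of all regions. The median gap to the nearest *mdx* HRTΔIKKβ region was 16.6 kb, and 25.5 kb from the other regions. The remaining 499 regions had none within 1 kb.

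The share with a nearby region differed along the score. It was 6.02% at scores of 40 to 41, 9.78% at 42 to 44 and 16.2% (16 of 99, 10.2 to 24.7) at 45 to 56. Below the minimum it was 8.86% at 37 to 39 and 5.72% at 29. At 40 alone it was 5.52% and at 39 alone 10.6%, so the minimum of 40 did not separate regions with and without a neighbour in the other list. GC content rose along the same bins, as given below, and its part in the shares was not tested.

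**Figure D2:**
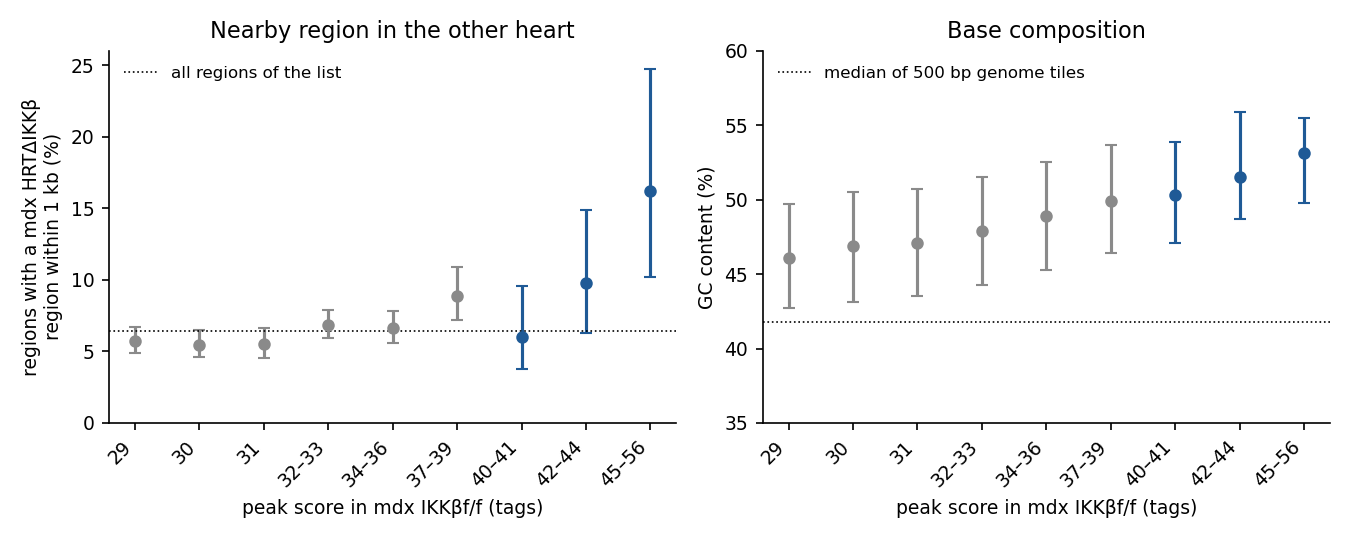
Both plots divide all regions of the *mdx* IKKβf/f list by peak score (x axis, tags), with bins of the selected regions in blue and of the other regions in grey. The left plot gives the percent of regions with an *mdx* HRTΔIKKβ region within 1 kb and its 95% Wilson interval, which reaches 16.2% at 45 to 56 against 6.40% over all regions (dotted). The right plot gives the median GC content with its quartiles, which goes from 46.1% at a score of 29 to 53.1% at 45 to 56, all above the 41.8% of 500 bp tiles of the genome (dotted).

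At the 50 shared places the *mdx* HRTΔIKKβ region had scores between 30 and 62, with a median of 34, while the *mdx* IKKβf/f scores had a median of 43. Since the *mdx* IKKβf/f regions were taken for a high score and the others were not, the lower values follow in part from the selection. In 7 of the 50 the *mdx* HRTΔIKKβ score was at least 40. In 4 of the 50 it was at least 43.18, which is 40 scaled to the deeper library. Of all 22935 *mdx* HRTΔIKKβ regions on the same chromosomes, 1684 had a score of at least 40 and 623 met the scaled minimum. Whether the shared places differ from that list in these shares was not tested. In 5 of the 50 the *mdx* HRTΔIKKβ score was above the *mdx* IKKβf/f score.

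The highest was at a region 82.8 kb downstream of the start of *Grm4* and outside the gene, with a score of 42 in *mdx* IKKβf/f but 62 in *mdx* HRTΔIKKβ and normalized tags of 8.64 and 11.0. At a region 171 kb upstream of *Tcerg1l*, a transcription elongation regulator-like gene, the scores were 45 and 48, and the normalized tags 10.9 and 7.36. These are the places at which the other heart also reached the highest scores. Near *Prr16* the scores were 49 and 47. In intron 18 of *Hira*, which encodes a chaperone that places histone H3.3, they were 40 and 44, with normalized tags of 6.91 and 8.01.

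Other shared places had a high score in *mdx* IKKβf/f and one near the caller's minimum in *mdx* HRTΔIKKβ. In this order, scores were 53 and 33 near *Mrm1*, 52 and 32 upstream of *Tmem45b*, and 48 and 31 upstream of *Gm17697*. In exon 4 of *Apoa5*, the gene for an apolipoprotein that lowers plasma triglycerides, the scores were 50 and 35, while the normalized tags were 7.95 and 10.2. Score and normalized tags thus gave opposite orders at *Apoa5*, but over unlike stretches. The *mdx* IKKβf/f region was 500 bp wide. The *mdx* HRTΔIKKβ region was wider (chr9:46078488-46079416), began 18 bp beyond it and did not overlap it. Normalized tags sum over the whole region, so these 2 values cannot be compared as signal at 1 place. In intron 2 of *Rap1gap*, an inhibitor of the small GTPase Rap1, the scores were 47 and 33. In intron 4 of *Mmp2*, a matrix-degrading protease active in injured heart, they were 43 and 31.

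Upstream of *Zfp707* the scores were 46 and 30, and 48.0% of the central 500 bp was tandem repeat. Further shared places had scores of 47 and 30 near *Vwde*, 46 and 34 in intron 2 of *Nacc2*, 46 and 31 in exon 3 of *AU021092*, 45 and 38 upstream of *Gm12033*, and 45 and 31 in intron 1 of *Accn1*, a proton-gated sodium channel gene. Lower down, they were 44 and 36 in intron 1 of *Mettl8*, 44 and 31 in exon 2 of *Gpr6*, 44 and 31 upstream of *Map3k7*, which encodes the kinase TAK1 that activates IKK, and 44 and 33 in intron 9 of *Rbm19*. *Mmp2*, *Hira* and the region outside *Grm4* were named after their values were seen. Of the 50 shared regions, 27 lay inside a protein-coding gene and 23 did not.

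In the other direction, 3.52% of all *mdx* HRTΔIKKβ regions had an *mdx* IKKβf/f region within 1 kb. For the 1684 with a score of at least 40 the share was 5.34% (4.37 to 6.52), and for the 623 that met the minimum scaled to depth, a score of 44 or more, it was 6.42% (4.75 to 8.62). The strongest regions of either list thus had a neighbour in the other list more often than that list's regions as a whole, by counting alone, and most had none.

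One place stood apart in position. Between 21.7 kb upstream of *Adra2c* and 59.8 kb downstream of the start of *Hmx1*, on chr5:35599313-35791854 (193 kb), 5 selected regions had scores of 54, 43, 41, 45 and 53. Their nearest *mdx* HRTΔIKKβ regions had scores of 35, 43, 37, 35 and 39, and none was more than 275 bp away. Normalized tags were 8.99 and 5.60 at the first, 10.5 and 8.01 at the second and 9.16 and 5.76 at the last. Input tags were between 6 and 9, within the range of the other selected regions. The *mdx* HRTΔIKKβ score equalled the *mdx* IKKβf/f score at 1 of the 5 and was lower at the other four.

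The stretch held 13 *mdx* IKKβf/f regions and touched 9 *mdx* HRTΔIKKβ regions, or 67.5 and 46.7 per Mb, against 6.29 and 11.0 per Mb over chromosome 5. The 8 other *mdx* IKKβf/f regions in it had scores of 29 to 36, and 0 of those 8 had an *mdx* HRTΔIKKβ region within 1 kb. Over all regions with lower scores the share was 6.27%, so 0 of 8 is near the background. Within the stretch, the *mdx* IKKβf/f regions with a neighbour in the other heart were the 5 strongest, and nothing is read from this contrast. *Adra2c* occupies chr5:35621215-35624410 and *Hmx1* chr5:35731507-35742379, both on the plus strand, and no selected region lay in either gene. Of the 5, the last 4 formed the only group of 4 selected regions in which each was within 100 kb of the next. The stretch was chosen after its positions were seen. Without its 5 regions the share with an *mdx* HRTΔIKKβ region within 1 kb was 8.27%.

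**Figure D3:**
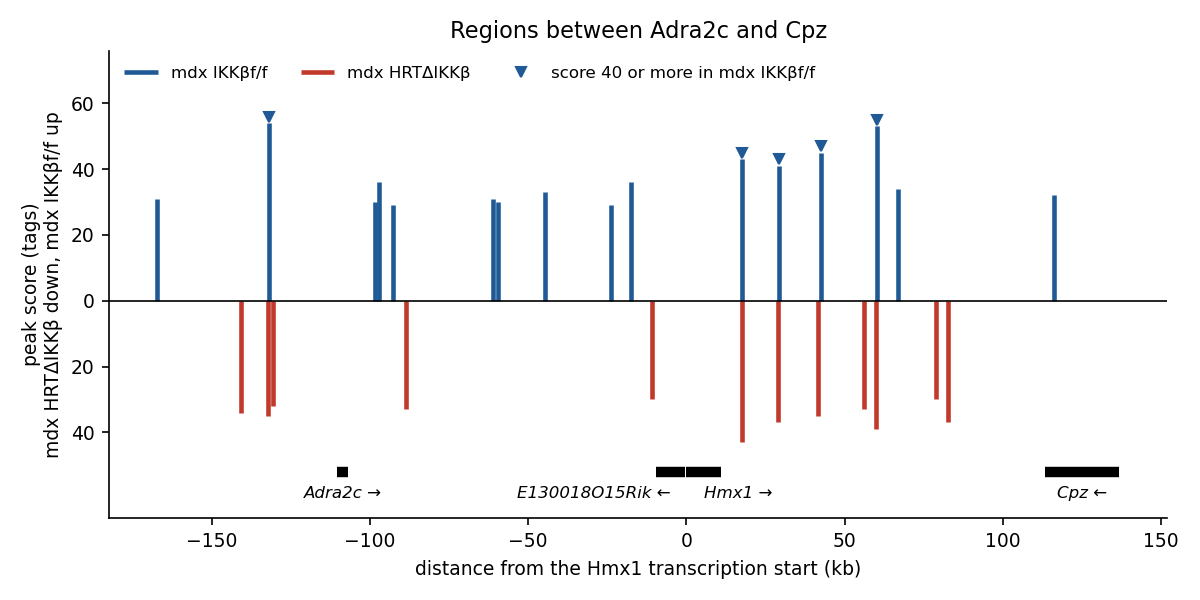
Regions around *Hmx1* by the distance of their centre from its transcription start (x axis, kb), with the peak score of *mdx* IKKβf/f regions drawn up in blue and of *mdx* HRTΔIKKβ regions drawn down in red (y axis, tags). Triangles mark the 5 selected regions, each of which has a red line within 1 kb, black bars are genes and arrows give their strand.

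Across the genome, 58 of the 549 regions (10.6%) had another selected region within 100 kb, in 27 groups, of which 24 were pairs. Of all 12540 regions, 8841 (70.5%) had another region of the list within 100 kb. The whole list is denser, with 5.24 regions per Mb against 0.229 for the selected regions. Whether the selected regions lay closer together than their number alone would give was not tested. Beside the group at *Hmx1* there were 2 groups of 3. One spanned 81.6 kb between *Tex101*, which encodes a germ cell surface protein, and *Cd177*, a neutrophil surface protein, with scores of 42 to 45 and 0 regions shared with *mdx* HRTΔIKKβ. The other lay in and beyond *Tmem132e*, with scores of 41, 42 and 43, of which the latter 2 had *mdx* HRTΔIKKβ regions with scores of 43 and 38 within 1 kb.

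Pairs with the highest scores were those in *Gabbr2* (53 and 41, 4.41 kb from end to end), at *Grm4* (50 and 42), near *4930591A17Rik* (48 and 45) and in *Fam189a1* (48 and 41). Next came a pair at *Atp6v0e2* and *Zfp775* (47 and 41), one at *Atp2b2* (47 and 43) and one at *E130006D01Rik* and *C130026L21Rik* (46 and 40). Of these 7 pairs only that at *Grm4* had a member with an *mdx* HRTΔIKKβ region within 1 kb. Of the selected regions 9.11% had one, and of all regions 6.40%. By chromosome, the selected share of regions ran from 2.61% on chromosome 19 (8 of 307) to 6.09% on chromosome 7 (51 of 837).

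Most of the regions lay away from promoters. Of 549, 91 (16.6%, 13.7 to 19.9) had their centre within 3 kb of a transcription start site (TSS), against 11.8% of the regions with lower scores. Within 1 kb of a TSS there were 42 (7.65%) against 4.97%. The median distance to a TSS was 21.7 kb against 28 kb, and 92 (16.8%) were more than 100 kb from any TSS, against 20.6%.

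By annotated part, 262 (47.7%, 43.6 to 51.9) lay between genes against 54.3% of the lower-scoring regions, and 213 (38.8%) in introns against 37.3%. Coding exons held 50 (9.11%, 6.98 to 11.8) against 3.65%, where 1.44% of the assembled sequence is coding exon. Noncoding exons and other genes held 12 each. Inside protein-coding genes there were 275 (50.1%, 45.9 to 54.3) against 43.1%, where 39.6% of the assembled sequence lies in such genes. Strongest regions of *mdx* HRTΔIKKβ, taken at a score of 44 or more, were placed alike, with 9.95% (7.84 to 12.6) in coding exons and 17.5% within 3 kb of a TSS. The intervals of the strongest regions of the 2 hearts overlapped for each part. Among the 99 regions with a score of at least 45, 12.1% (7.07 to 20) lay within 3 kb of a TSS, 43.4% (34.1 to 53.3) inside protein-coding genes and 11.1% (6.32 to 18.8) in coding exons. The first 2 intervals hold the shares of all 549 regions and those of the lower-scoring regions alike, and do not tell them apart.

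**Figure D4:**
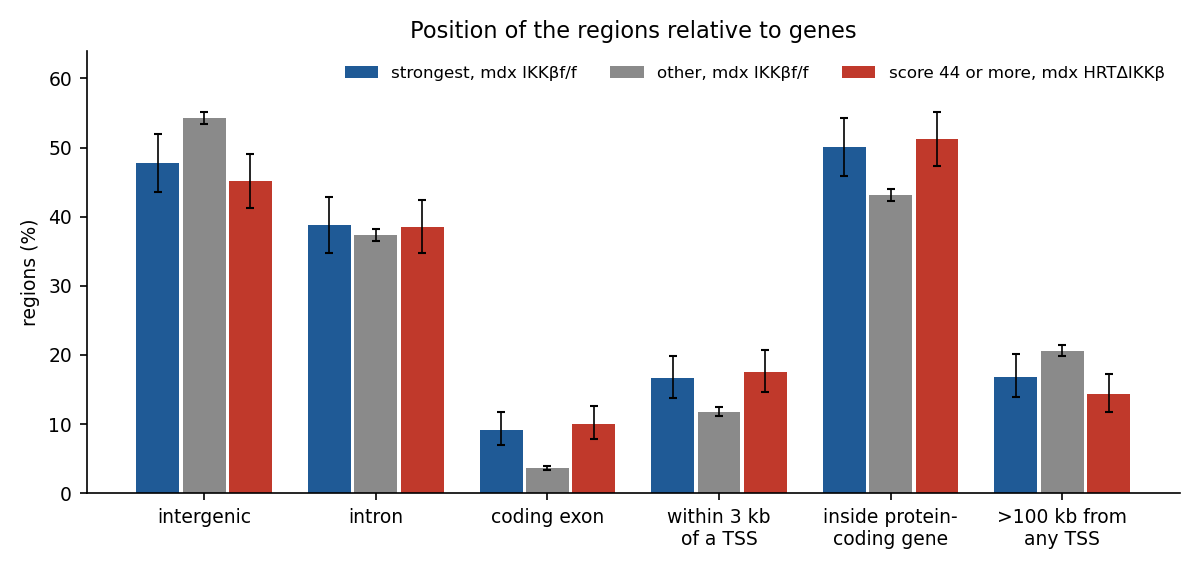
Percent of regions (y axis) whose centre falls in each kind of position, for the 549 selected regions (blue), the other *mdx* IKKβf/f regions (grey) and *mdx* HRTΔIKKβ regions with a score of 44 or more (red). Bars are shares and whiskers 95% Wilson intervals; coding exons hold 9.11%, 3.65% and 9.95%, and the classes are not exclusive of one another.

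The regions on coding exons came from genes of many kinds. The highest were in *Fuk* (51), *Fbn2* (50), *Fbxo41* (50), *Apoa5* (50) and *Rbpjl* (49), a pancreatic relative of the Notch effector RBPJ. Also among the 50 were exon 10 of *Nos1* (46), neuronal nitric oxide synthase, exon 15 of *Cacna1d* (44), an L-type calcium channel of pacemaker cells, exon 5 of *Flnc* (40), filamin C of the Z-disc, and exon 30 of *Itpr2* (40), an inositol trisphosphate receptor. None of these 4 had an *mdx* HRTΔIKKβ region within 1 kb, where 9.11% of the selected regions and 6.40% of all regions did. They were named after their values were seen, with no list behind them.

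Near protein-coding promoters, 29 of the regions (5.28%, 3.70 to 7.48) had their centre within 1 kb of a TSS, against 3.81% of the lower-scoring regions. The highest scores were 48 at *Ptgdr*, the prostaglandin D2 receptor, and 48 at *Slc4a11*, a borate and proton transporter. Scores of 44 were at *Ptprd*, *Drg2* and *Megf11*, and of 43 at *Tacr3* (the neurokinin B receptor), *Ccdc155* and *Sema6c*. Those at *Ttc22* and *Eya4* (a transcriptional coactivator linked to deafness and cardiomyopathy) had 42.

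Scores of 41 were at *Gabra2*, *5330417H12Rik*, *Mphosph9*, *Cacna1i* (a T-type calcium channel), *Prlhr*, *Nefl*, *Tmem108* and *Zbtb17*. A score of 40 was at *Nup214*. The *Nefl* region, over the first exon of the neurofilament light chain gene, had 52 CpG in its central 500 bp, while that at *Ptprd* had 2. None of the promoter regions named so far had an *mdx* HRTΔIKKβ region within 1 kb, where 9.11% of the selected regions and 6.40% of all regions did. Below them, *Fezf1*, a forebrain zinc finger gene, had regions of both lists within 1 kb of each other, with scores of 40 and 34, and *Qpct* had 40 and 33.

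The 275 regions inside protein-coding genes fell in 258 genes. The median length of these genes was 92.3 kb, that of genes that held another region of the list 68.6 kb, and that of all protein-coding genes 15.5 kb, so genes that held a selected region were longer than most. In 16 genes there were 2 or more selected regions. *Dlgap2*, which encodes a scaffold protein of the postsynaptic density, held 3, all with a score of 40. Among the genes with 2 were *Accn1*, *Atp2b2* (a plasma membrane calcium pump, 43 and 43), *Chat* (the acetylcholine-synthesizing enzyme, 42 and 42), *Csmd2*, *Erc2*, *Rimbp2* and *Ptprt*.

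Some single genes with a selected region were picked from the 258 by hand, with no list and no background share, and nothing is read from them as a group. A score of 43 was found in intron 1 of *Gja5*, the gap junction protein of atria and conduction tissue, of 41 in intron 7 of *Smad3*, a mediator of TGF-β signalling, and of 41 in intron 6 of *Slc8a3*, a sodium-calcium exchanger of brain and skeletal muscle. *Kcnd3*, a channel of the transient outward potassium current, had 40. The muscle gene *Myoz3*, a Z-disc protein, had 41. *Slc8a1*, the sodium-calcium exchanger of cardiomyocytes, had none. These genes were named after their values were seen.

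Gene families were counted by symbol after the regions had been seen, and are given without a test. Of 44 glutamate and GABA receptor genes, 8 (18.2%) held a selected region, namely *Gabbr2*, *Gabrb2*, *Gabrg3*, *Grik3*, *Grin2a*, *Grin2b*, *Grm4* and *Grm7*, with scores from 40 to 53. Over all protein-coding genes 258 of 21418 (1.20%) held one. The receptor genes have a median length of 126 kb, against 15.5 kb for all genes, and 65.9% of them held a region of any score, against 15.2%. Voltage-gated calcium channel genes held a selected region in 3 of 25 (*Cacna1d*, *Cacna1i* and *Cacna2d3*) and potassium channel genes in 4 of 94 (*Kcnd3*, *Kcnh1*, *Kcnip4* and *Kcnn3*, the last with a score of 47). Collagen genes, with a median length of 106 kb, held one in 1 of 42, *Col13a1*. None of 1106 olfactory receptor genes and none of 138 ribosomal protein genes, both short, held one. The part of length in these counts was not tested.

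Genes that mark the cells of the heart held selected regions about as rarely as protein-coding genes in general. Of 30 cardiomyocyte genes, among them those for the cardiac myosins, troponins and natriuretic peptides, 0 had a selected region in the gene or within 10 kb, 7 had any *mdx* IKKβf/f region (*Cacna1c*, *Myh6*, *Myh7*, *Ryr2*, *Slc8a1*, *Tbx5* and *Ttn*) and 13 an *mdx* HRTΔIKKβ region. Over all protein-coding genes the shares were 1.66%, 23.2% and 36.9%. Against 1.66% over all genes, 0 of 30 is a share near the background. Of 15 fibroblast and matrix genes 0 had a selected region and 5 had any, of 9 leukocyte genes found 0 and 5, and of 5 smooth muscle genes 0 and 1. Of 11 endothelial genes 1 had a selected region, *Sox17*, in exon 4 with a score of 41.

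Outside these cell types, 1 of 8 neuronal genes (*Nefl*, score 41) and 0 of 6 liver genes had a selected region, and 7 and 1 had any. Median length was 60.5 kb in the neuronal list and 18 kb in the cardiomyocyte list. Of 16 NF-κB pathway genes and targets 0 had a selected region and 1, *Tnf*, had any. Of 9 autosomal genes of the dystrophin complex 0 and 3 did. Of 10 housekeeping genes, with a median length of 4.50 kb, 0 had an *mdx* IKKβf/f region of any score. Over all protein-coding genes 5.27% had an *mdx* IKKβf/f region within 3 kb of a TSS and 0.341% a selected one. For regions of any score in the gene or within 10 kb, the shares ran from 0% of housekeeping to 87.5% of neuronal genes. The share was 23.3% for the cardiomyocyte list and 23.2% over all protein-coding genes. The part of gene length in these shares was not tested. For selected regions, which 1.66% of all protein-coding genes had, these short lists cannot be set apart from the background. The label heart could therefore not be checked against its defining genes from the 549 regions.

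Base composition was shared by the regions although the rule did not use it. Their GC content had a median of 51.3% (quartiles 47.9 and 55.1, range 35.1 to 68.2), against 47.5% (43.7 and 51.3) for the lower-scoring regions and 41.8% (37.4 and 46.2) for 500 bp tiles of chromosomes 1 to 19. Of the tiles, 7.57% had a GC content as high as that median. Median GC went up in each step of the score, from 46.1% at 29 to 49.9% at 37 to 39, 50.3% at 40 to 41, 51.5% at 42 to 44 and 53.1% at 45 to 56. The strongest *mdx* HRTΔIKKβ regions had a median of 51.7%, with quartiles of 48.6 and 55.5.

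CpG counts did not rise as much, with a median of 6 per central 500 bp against 5. Only 15 regions (2.73%, 1.66 to 4.46) had a GC content of at least 50% with an observed over expected CpG ratio of at least 0.6, as in CpG islands, against 0.867% of the others. The share was 3.05% (1.96 to 4.71) in the strongest *mdx* HRTΔIKKβ regions. Among the printed sequences, *Fbxo41* with 52 CpG and *Apoa5* with 30 in their central 500 bp lie on coding exons. Tandem repeats made up at least 25% of the central 500 bp in 4 regions (*Mrgpra3*, near *Cacna2d3*, *Zfp707* and *5730522E02Rik*) or 0.729% (0.284 to 1.86), against 0.0834% of the others, and at least 10% in 2.73% against 2.92%. Most of the regions therefore held few repeats of this kind, and the highest-scoring one was 1 of the 4 exceptions. Of these 4, 3 were among the 99 regions with a score of 45 or more (3.03%, 1.04 to 8.53). At 42 to 44 it was 1 of 184, and at 40 to 41 it was 0 of 266. Of the strongest *mdx* HRTΔIKKβ regions, 1.28% (0.652 to 2.51) reached 25%.

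Short motifs of transcription factors were searched on both strands of the central 500 bp, and overlaps between motifs were allowed. The AP-1 motif TGANTCA was in 11.3% (8.91 to 14.2) of the selected regions and 14.4% of the others, and the NF-κB motif GGANTTTCC in 1.82% (0.992 to 3.32) and 1.74%. The heart motifs were the GATA motif AGATAA, in 17.5% (14.5 to 20.9) and 22.7%, the MEF2 motif CTATTTNTA, in 1.28% (0.619 to 2.61) and 1.87%, the TEAD motif ACATTCC, in 3.83% (2.52 to 5.78) and 7.28%, and the NKX2-5 motif CACTTNA, in 19.5% (16.4 to 23.0) and 24.2%. The ETS motif CCGGAAG was in 3.83% (2.52 to 5.78) and 1.98%, and the CTCF motif CCACNAGGG in 3.46% (2.23 to 5.34) and 2.05%. The SP/KLF motif GGGCGG was in 8.38% (6.34 to 11.0) and 7.40%, so its interval, like those of the NF-κB and MEF2 motifs, held the share of the others. GC content differs between the sets, and its part in these shares was not tested. A match is a run of letters and not a bound site.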

How the data were processed

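H3K27ac ChIP-seq of whole hearts was analysed from the region lists of 1 ChIP library per genotype. Bowtie2 was used by the authors to align reads to mm9, and they called regions with HOMER findPeaks against the matched input, with a fold over input of at least 4 and a Poisson p-value of at most 0.0001. Versions are not given in the sources used here. The caller counted at most 2 tags per bp for *mdx* IKKβf/f but 3 for *mdx* HRTΔIKKβ. The authors deposited a peak score, a tag signal normalized to 10000000 tags, ChIP and input tags, the fold (ratio) over input and a p-value, which was not used. Regions off chromosomes 1 to 19 were left out, 26 from *mdx* IKKβf/f (3 with a score of at least 40) and 46 from *mdx* HRTΔIKKβ.

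Region centres were placed on GENCODE vM1. The NCBIM37 genome, whose chromosome lengths match mm9, gave sequences. Distances, overlaps of at least 1 bp, GC content, motifs and exact tandem repeats of at least 12 bases were computed with pysam 0.24.0, SciPy 1.17.1, pandas 2.3.3 and NumPy 2.4.6 in Python 3.11.15, and figures with matplotlib 3.10.9. On simulated inputs 6 of 6 checks returned the known answer. Wilson intervals are at 95%.

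Named were the 15 highest scores, up to 20 with an *mdx* HRTΔIKKβ region within 1 kb, up to 20 within 1 kb of a protein-coding TSS, up to 10 groups within 100 kb, those within 10 kb of listed marker genes, and others said to be chosen later. Some regions that meet these rules are not reported here. The regions and gene lists were chosen with earlier results of these data known. Alternatives were other score and fold minimums, ranking by tags per bp, and other distances and TSS sets.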

Additional observations from a re-analysis of the deposited data

How the results depend on the processing

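With 1 library per genotype, none of the values could be set against replicate error, and input, library and heart cannot be told apart. No paired analysis was possible because each genotype had 1 ChIP library, so the groups share fewer than 2 replicate numbers. Of 30 alternatives, 11 left the value within its interval or within 1.5 times the count, and 19 moved it. Those 19 used another score or fold minimum, distance, list or set of TSS. The counts and shares given here thus depend on these settings. At a score of at least 38 there were 1032 regions, 171 with another within 100 kb, and a median GC content of 50.5%. At a score of at least 45 there were 99 regions, of which 16.2% had an *mdx* HRTΔIKKβ region within 1 kb, 12.1% lay within 3 kb of a TSS, 43.4% lay inside a protein-coding gene and 4 had another within 100 kb, with a median GC content of 53.1%. At 8-fold over input or more, there were 39 regions, with 25.6% within 3 kb of a TSS and 56.4% inside a protein-coding gene. The share with an *mdx* HRTΔIKKβ region was 5.46% by overlap, 25.3% within 5 kb and 0.729% when that list was held to the depth-scaled minimum (0.319% over all regions). It was 8.27% without the 5 regions at *Hmx1*, an alternative chosen after seeing the data. The share near a TSS was 7.65% within 1 kb and 12.6% for protein-coding genes. With another selected region within 10 kb there were 10, and within 1 Mb 244. The lists hold only regions past the caller's minimum of 29 tags (*mdx* IKKβf/f) or 30 tags (*mdx* HRTΔIKKβ), so a place not called in a list may still hold signal there.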
